A study of Homo sapiens with 8 samples.

Results

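The comparison of the miR-8073 mimic with mock treatment covered 5 of the 8 arrays of the series, and its members were taken from the sample labels alone. HCT116 cells, an established human colorectal cancer cell line, were transfected with a synthetic miR-8073 mimic (3 arrays) or were mock treated, with no sequence added (2 arrays). The remaining 3 arrays held HCT116 cells given a microRNA-negative control sequence, a duplex of unrelated sequence, and are shown beside the comparison. The mimic arrays differed from the mock arrays both in having received a duplex and in the sequence of that duplex, so the comparison measured these together. Neither the labels nor the study stated whether mock cells received the transfection reagent. An effect of the reagent therefore cannot be told apart from these. The study used a lipid reagent for transfection, and the labels gave no dose, time, slide or date. All cells were of a single line, and whether the arrays of a group stood for separate cultures was not given, so every p-value here rests on array-to-array spread that may be technical.

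A microRNA is a short RNA that is loaded into an Argonaute protein and pairs with messenger RNAs, mostly through its seed, the bases near its 5′ end. Pairing in the 3′ untranslated region commonly lowers the level and the translation of the messenger RNA, and genes downstream of the direct targets then change in turn. The strand that the mimic is made to supply is shown here because the comparison turns on it. It is the RefSeq sequence of mature miR-8073 (GRCh38.p14, chr13:110340968-110340989, plus strand, 22 bases), written 5′ to 3′ with the seed, bases 2 to 8, in capitals.
hsa-miR-8073: aCCUGGCAgcagggagcgucgu
The study notes that miR-221-5p has the same seed, so sites for this seed are not particular to miR-8073. A perfectly paired target site would read TGCCAGG on the DNA strand that matches the messenger RNA. Such sites were not searched for here.

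Each array read labelled RNA in a single dye on a chip with 24460 probe spots and 2680 blank spots. Signals are in scanner units after background correction and normalization, changes are differences of log2(signal + 50), which understate the change of dim probes, and folds are ratios of mean signals. Mimic arrays had 11559 to 12463 probes above background and mock arrays 11873 and 12786. Over the 12904 tested probes, log2 values correlated at 0.994 to 0.996 between mimic arrays, at 0.993 between the mock arrays and at 0.987 to 0.992 between the groups. Of 10 markers of colon epithelium on the array, 6 were above background on all 5 arrays, and their summed signal was 7690 to 9540 in mimic and 7960 to 8080 in mock. The colon epithelial marker CEACAM5 was not above background on any of these arrays, whereas EPCAM, KRT18 and KRT19 had mean signals of 1380, 4840 and 2100 in mimic and 1350, 4670 and 1920 in mock. Summed signals were 68.9 to 86.8 in mimic and 65.1 to 72.2 in mock for markers of fibroblasts, of which 5 of 7 were not above background on any array, and 17.9 to 22.1 and 28.1 to 31.5 for markers of blood cells. Most of the fibroblast sum came from DCN, at 50.4 and 51.2, while COL1A1, COL1A2, COL3A1 and LUM were not above background on any array.

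With the mimic, more probes were called lower than higher against mock, and their median fold was larger. At an adjusted p below 0.05 (limma, Benjamini-Hochberg over 12904 probes), 488 probes were called, or 3.78%. Of these, 330 (2.56%) were lower with the mimic and stood for 307 genes, and 158 (1.22%) were higher and stood for 148 genes. Among the probes called lower, 142 differed by more than 0.5 on the log2 scale and 18 by more than 1. Among those called higher, 30 exceeded 0.5 and 0 exceeded 1. Median signals were 136 in mock and 71.4 in mimic for the lower probes, and 64.7 and 101 for the higher ones. The higher probes were thus dimmer, and this scale understated their changes more. The median fold was 1.74 for the lower probes (quartiles 1.51 and 2.12) and 1.56 for the higher ones (quartiles 1.43 and 1.86). The median change over all tested probes was 0.00631, and 2388 probes, 1249 of them lower, had an unadjusted p below 0.05. For comparison, the negative control sequence against mock gave 465 calls (3.6%), and the mimic against the negative control 2017 (15.6%). These 3 comparisons share arrays and differ in the number of arrays per group.

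**Figure D1:**
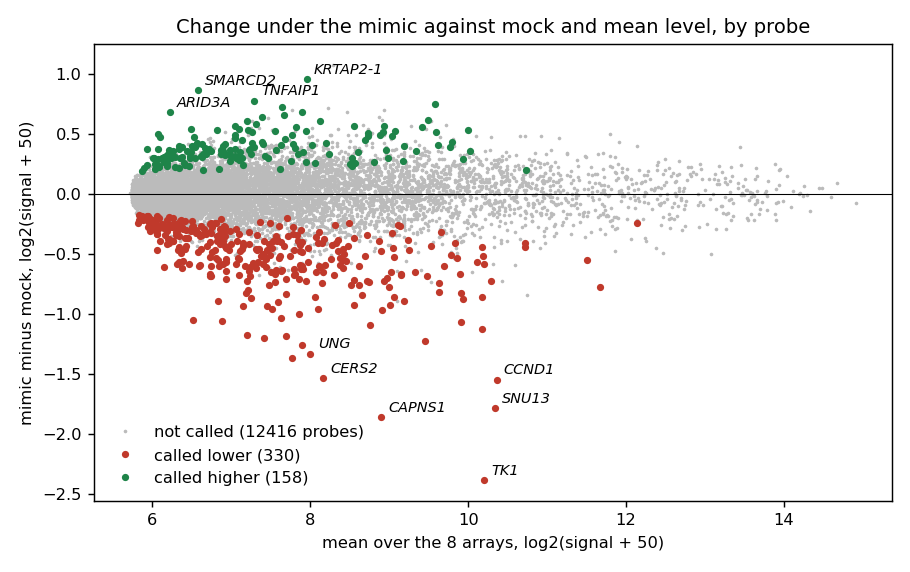
Each point is a probe, with its mean level over the 8 arrays on the x axis and its mimic minus mock difference on the y axis, both as log2(signal + 50). The 330 probes called lower reach -2.38 at TK1, while the 158 called higher end at 0.96 at KRTAP2-1. Called probes lie at all levels but are fewest among the dimmest.

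The calls were spread over the range of levels. When the tested probes were divided into 4 equal groups of 3226 by their mean, the dimmest group had 17 lower and 4 higher calls, the next 64 and 40, the third 124 and 64, and the brightest 125 and 50. Their median standard errors were 0.041, 0.055, 0.08 and 0.11 on this log2 scale. Calls depended strongly on how background was taken and on single arrays. When background was instead taken from the pixels surrounding each spot, limma called 0 probes (266 at an unadjusted p below 0.05) and 9 of the 95 called probes of named genes changed sign, SHMT2, SLC5A6, ALDOC and BIRC2 among them. With any single array left out it called fewer, from 124 without mock replicate 2 to 375 without negative control replicate 2. The calls numbered 288, 337 and 220 without mimic replicates 1, 2 and 3, 301 without mock replicate 1, and 335 and 283 without negative control replicates 1 and 3. On other scalings the calls were more one-sided, with 67.6% lower as reported, 77.5% after centring arrays on their medians and 86.4% on the authors' log2 values.

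The largest falls, after those of thymidine kinase TK1, the calpain subunit CAPNS1, the ribonucleoprotein SNU13 and cyclin D1 (CCND1), reached genes of lipid, DNA, RNA and protein handling. CERS2, a ceramide synthase that makes very long chain ceramides, gave signals of 327 and 409 on the mock arrays and 73.2, 98.7 and 111 on the mimic arrays. This was a 3.9-fold fall, with a log2 change of -1.54 ± 0.14 (SE) and an adjusted p of 0.00365 in limma. Its second probe fell as well, by 1.37 on the log2 scale. UNG, the glycosylase that removes uracil from DNA, stood at 429 and 299.7 in mock and at 125, 112 and 102 with the mimic, a 3.22-fold fall (log2 change -1.33 ± 0.14, adjusted p = 0.00583). The mock arrays of UNG differed more from each other than the mimic arrays did. Its groups did not overlap, which held for all 330 probes called lower and for 4362 of the 12904 tested probes. PABPN1, which coats poly(A) tails in the nucleus, fell 2.57-fold, from 709 and 908 to 316, 303 and 322 (log2 change -1.23 ± 0.11, adjusted p = 0.00339). FARSA, the alpha subunit of the phenylalanyl-tRNA synthetase, read 255 and 284 in mock and 67.8, 97.4 and 85.9 with the mimic, with a larger error (log2 change -1.26 ± 0.21, adjusted p = 0.023). Its call was lost when mimic replicate 1 or 3 or either mock array was left out, with an adjusted p of up to 0.121.

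Subunits of large ubiquitin-regulating complexes were among the steepest falls. COPS7A, a subunit of the COP9 signalosome, gave 185 and 196 in mock and 57.2, 51.0 and 56.7 with the mimic, a 3.46-fold fall and the smallest adjusted p after that of TK1 among the genes described here (log2 change -1.20 ± 0.05, adjusted p = 0.000212). ANAPC15, a subunit of the anaphase-promoting complex, went from 149.7 and 152 to 41.7, 37.3 and 38.7, a 3.85-fold fall (log2 change -1.17 ± 0.08, adjusted p = 0.00142). These were the only members called out of 24 measured of both complexes (8.33% lower, against 2.56% over all probes). The lists were chosen with earlier results of these data known, so such shares, here and below, are descriptions only. The median change of the 24 was 0.0129. COPS3, another signalosome subunit, had 837 and 919 in mock and 695, 768 and 665 with the mimic, with an adjusted p of 0.0847. The fall was therefore measured in single subunits and not across either complex.

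Single metabolic enzymes were also among the largest falls. PYCR1, which carries out the last step of proline synthesis, had 221 and 255 in mock and 75.2, 75.8 and 79.6 with the mimic, a 3.1-fold fall (log2 change -1.18 ± 0.07, adjusted p = 0.000591). SHMT2, the mitochondrial serine hydroxymethyltransferase, had 646 and 643 in mock and 299.7, 301 and 316 with the mimic, a 2.11-fold fall (log2 change -0.97 ± 0.06, adjusted p = 0.000591). Both are known targets of the stress factor ATF4. They were the only 2 of 23 measured genes of that list to be called (8.7% lower, against 2.56% over all probes). None of the list was called higher. ATF4 itself read 927 and 937 in mock and 804, 644 and 717 with the mimic, which did not pass (log2 change -0.35 ± 0.12, adjusted p = 0.155). PCBD1, a dehydratase that recycles the cofactor tetrahydrobiopterin, fell 2.42-fold, from 615 and 448 to 220.3, 224 and 215 (adjusted p = 0.00583).

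At the membrane and in the cytoskeleton, ANXA5, an annexin that binds phosphatidylserine, had 1425 and 1589 in mock and 671, 678 and 636 with the mimic, a 2.28-fold fall (log2 change -1.13 ± 0.09, adjusted p = 0.00176). Its second probe fell by 1.07. The other annexin of note in level, ANXA3, read 2009 and 1413 in mock and 2154, 2159 and 2107 with the mimic and did not pass (adjusted p = 0.212). Only ANXA5 and CAPNS1 were called among 16 measured annexins and calpains, both lower (12.5%, against 2.56% over all probes). This list, too, was chosen with earlier results known. MARCKSL1, an actin-binding relative of the kinase C substrate MARCKS, fell 2.52-fold (225 and 261 against 104, 90.4 and 94.9, adjusted p = 0.00176). GPRC5A, an orphan receptor induced by retinoic acid, fell 2.32-fold with little spread in either group (224 and 221 against 93.2, 93.5 and 100.1, log2 change -0.90 ± 0.04, adjusted p = 0.000316). In the nucleus, SINHCAF, a subunit of the SIN3 histone deacetylase complex, fell 2.66-fold (216 and 240.2 against 81.4, 96.0 and 79.9, adjusted p = 0.0011), and PIMREG, a regulator of mitosis, fell 4.14-fold (132 and 92.0 against 26.0, 29.9 and 25.2, adjusted p = 0.00661).

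**Figure D2:**
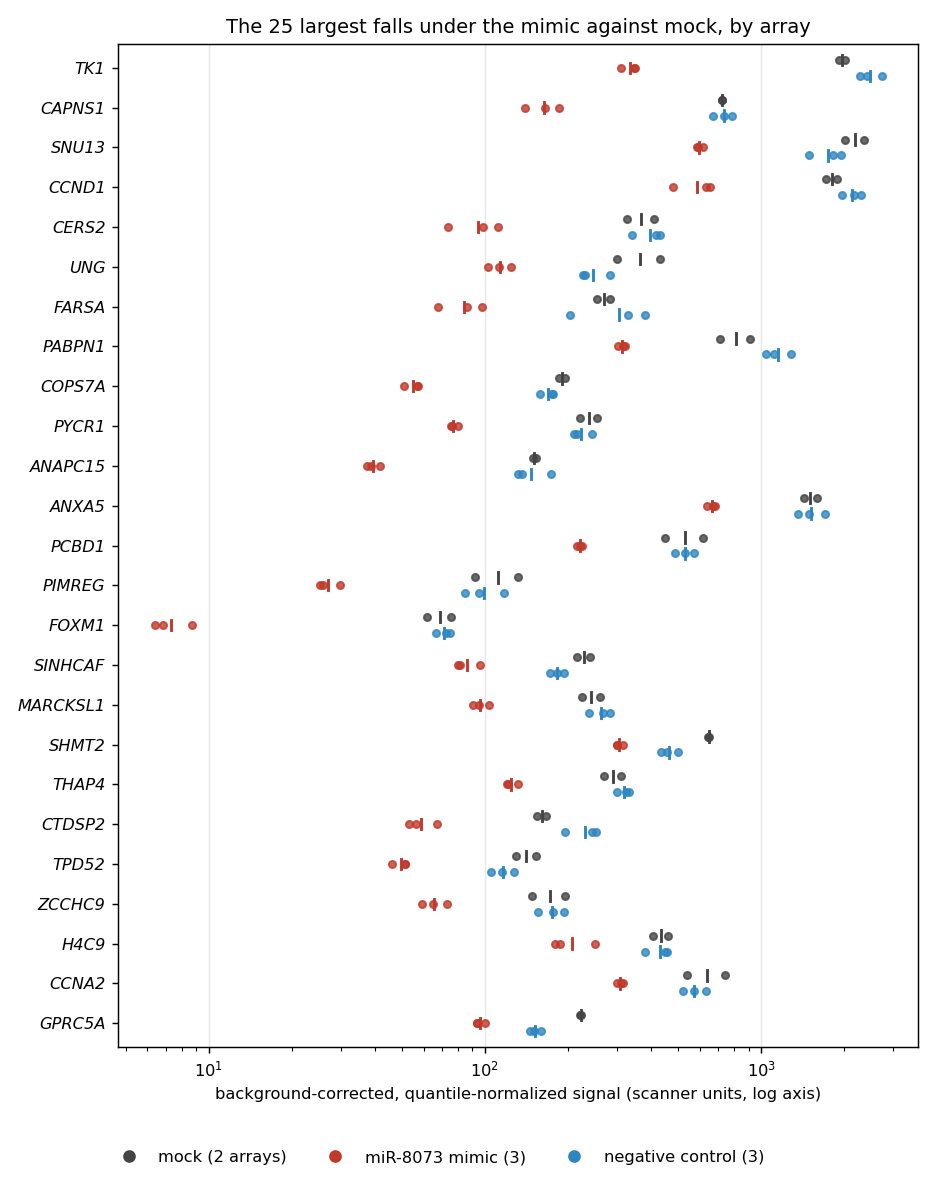
Signals of the 25 named genes with the largest falls, in scanner units on a log axis, with 1 point per array and a bar at the mean of the 2 mock, 3 mimic and 3 negative control arrays. That the mimic points lie to the left of both mock points follows from the rule that picked the genes. FOXM1 is the dimmest with mimic signals of 6.37 to 8.71.

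The falls were firmer than the rises. Of the 25 genes with the largest falls, 23 stayed below an adjusted p of 0.05 whichever of the 8 arrays was left out, the exceptions being FARSA and the histone gene H4C9, whose coding sequence is shared with other H4 genes. Of the 20 genes with the largest rises only 5 did, namely TNFAIP1, HOXA9, ARID3A, HBE1 and CREBZF, and 14 of the 20 lost their call without mock replicate 2. Over all calls, 76 of 330 lower and 11 of 158 higher probes were called under each of the 8 omissions. Genes read by several probes had no opposing calls. Of 1055 genes with more than 1 tested probe, 0 had probes called in opposite directions, 11 had all probes called lower and 4 had all called higher. The 11 included CERS2, ANXA5, PYCR1, THAP4, BCAT2 and ZDHHC12. The 4 were CDC37L1, the hexosamine pathway enzyme GFPT1 (0.38 and 0.42), the kinase NLK (0.22 and 0.30) and TPRG1L (0.31 and 0.53), of which the last 3 were chosen after their values were seen. In a further 38 and 27 genes only some probes were called, among them CTDSP2, with -0.95 and -0.05. Of the rises, H3-3B (0.569 and 0.389), HBE1 (0.557 and 0.394), CKAP4 (0.617 and 0.151) and ALDOC (0.542 and 0.341) were called at the first value only. In 3 of the genes with some probes called (MBD3, NUP98 and DNAAF10) an uncalled probe had the other sign.

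The rises were smaller than the falls on the scale of log2(signal + 50) and in median fold. ARID3A, a transcription factor that binds AT-rich DNA, gave 10.6 and 8.91 in mock and 49.9, 41.3 and 46.5 with the mimic, a 4.72-fold rise (log2 change 0.68 ± 0.05, adjusted p = 0.00176), and had the smallest adjusted p of the 20 largest rises. TNFAIP1, a substrate adaptor of a cullin ubiquitin ligase, rose 2.26-fold from 58.2 and 73.1 to 149.6, 132 and 163 (adjusted p = 0.006). CREBZF, a leucine zipper transcription factor, rose 2.28-fold from 23.8 and 31.2 to 56.5, 68.6 and 62.9 (adjusted p = 0.0076). In each of these 3 the groups lay well apart. SMARCD2, a subunit of the SWI/SNF remodelling complex, rose 4.71-fold at its called probe (H300018809), from 16.7 and 12.3 to 85.1, 69.5 and 49.6, but its other probe moved by only 0.06 on the log2 scale. It was the only 1 of 20 measured SWI/SNF subunits to be called (5% higher, against 1.22% over all probes). The hair keratin-associated gene KRTAP2-1, a member of a family of near-identical genes that the probe may not separate, had the largest rise, from 163 and 145 to 365, 313 and 361 (log2 change 0.96 ± 0.14, adjusted p = 0.0139), and lost its call without mimic replicate 3 or mock replicate 2 (adjusted p up to 0.0848).

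BIRC2, an inhibitor of apoptosis, rose 1.56-fold, from 325 and 348 to 523, 561 and 486 (adjusted p = 0.0111). It was the only 1 of 25 measured genes of the apoptosis machinery to be called (4% higher, against 1.22% over all probes). Its call was lost when either mock array was left out (adjusted p up to 0.0551). BID and BAK1, both of which promote apoptosis at mitochondria, read 372 and 303 against 383, 432 and 445 (adjusted p = 0.143) and 79.3 and 32.1 against 85.1, 54.7 and 100.3 (adjusted p = 0.518). H3-3B, which encodes a replacement variant of histone H3, rose 1.58-fold, from 275 and 262 to 444, 448 and 379 (adjusted p = 0.00797). Its call was lost without mock replicate 2 (adjusted p = 0.0585). HBE1, the embryonic epsilon globin, rose from 593 and 569 in mock to 862, 925 and 848 with the mimic (log2 change 0.56 ± 0.06, adjusted p = 0.00605). Among the HOX transcription factors, 3 of 24 measured were called, 1 lower and 2 higher. The shares were 4.17% and 8.33%, against 2.56% and 1.22% over all probes. HOXA9 rose from 528 and 502 to 986, 838 and 874 and HOXA10 from 73.5 and 61.9 to 132, 135 and 97.5, whereas HOXB3 fell from 68.8 and 76.6 to 29.0, 35.4 and 30.3. Their adjusted p were 0.00583, 0.0432 and 0.00365, and the call of HOXA10 was lost in 7 of the 8 omissions of an array (adjusted p up to 0.202).

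**Figure D3:**
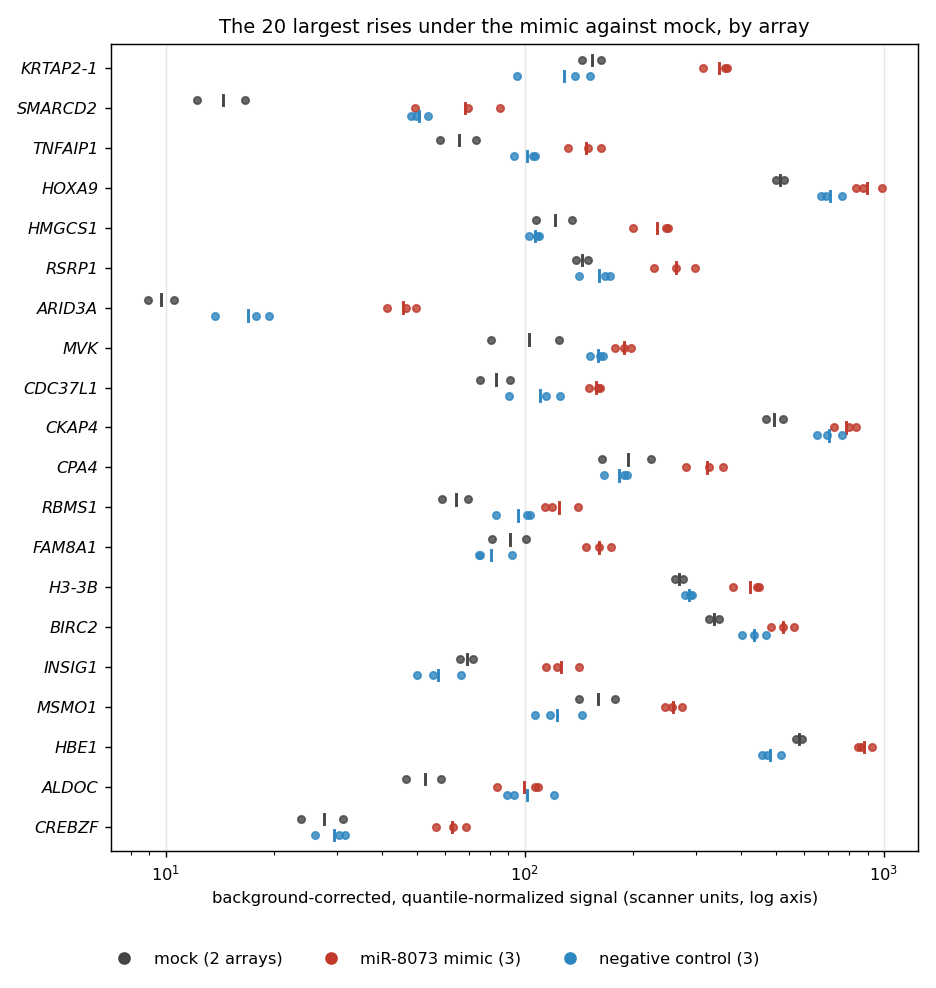
Signals of the 20 named genes with the largest rises, in scanner units on a log axis, with 1 point per array and a bar at the group mean. That the mimic points lie to the right of both mock points follows from the rule that picked the genes. The negative control points of SMARCD2, CKAP4 and ALDOC lie near those of the mimic.

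Genes of DNA replication fell together. Of 40 measured genes of the G1/S transition and DNA replication, 22 were called lower, 0 higher, and 18 did not pass, against a background of 2.56% lower calls over all probes. The median change of the 40 was -0.493, against 0.00631 over all probes, and even the highest member lay at -0.05. The list held the replicative helicase (MCM2, MCM3, MCM4, MCM5 and MCM7 called, MCM6 not, adjusted p = 0.119), the GINS complex that activates it (GINS2 and GINS3), the clamp loader (RFC2, RFC3 and RFC4), the primase and polymerase alpha (PRIM1 and POLA2), the histone chaperone CHAF1A and CHAF1B, and nucleotide enzymes (TK1, TYMS and RRM2). GINS3 had 95.6 and 87.0 in mock and 42.8, 36.4 and 35 with the mimic, a 2.4-fold fall (adjusted p = 0.00157). MCM3 had 198 and 216 against 111, 120.5 and 114, a 1.8-fold fall (adjusted p = 0.00176). PCNA, the sliding clamp, had 2759 and 1695 against 1212, 1203 and 1143, and its wide mock arrays left it above the threshold (log2 change -0.84 ± 0.18, adjusted p = 0.0545). RRM1, the large subunit of ribonucleotide reductase, had 857 and 1119 against 578, 757 and 657 (adjusted p = 0.091).

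E2F factors commonly regulate genes of this kind through sites close to their start. E2F2 and E2F4 were called lower (log2 changes -0.64 ± 0.06 and -0.58 ± 0.08, adjusted p of 0.00365 and 0.01). The call of E2F4 was lost without mock replicate 2 (adjusted p = 0.0609). Any link of these 2 genes to the changes in the replication list was not tested. Promoters from 250 bases before to 50 after the start were read from RefSeq (GRCh38.p14), taking the first listed for each gene, and searched on both strands for the E2F motif TTTCCCGC. It was present in 233 of 8447 tested genes with a promoter (2.76%), in 19 of 264 genes called lower (7.2%) and in 3 of 124 called higher (2.42%). A second form of the motif, TTTGGCGC, was present in 89 (1.05%), 10 (3.79%) and 0 genes. Of the 22 replication genes called lower, 20 had a promoter, and TTTCCCGC was found in 6 of these. Of all 40 measured members of the list, 37 had a promoter. Among these, 9 (24.3%) held TTTCCCGC, 6 (16.2%) held TTTGGCGC and 15 (40.5%) held either form. Either form was thus found in 6 of the 20 members called lower, beside 15 of the 37 in all. In the promoters searched, the members called lower did not hold it more often. No test was run on this difference. Of the other motifs searched, TTTGAA was in 9.99% of all promoters, 12.5% of those of genes called lower and 9.68% of those called higher, and CCAAT in 36.9%, 39.4% and 46.8%. The matches are shown because these promoters belong to members of the list that fell together. Each line gives 28 bases in the direction of the gene, with the match or its reverse complement in capitals, and a match is a description of the sequence only.
MCM3 (chr6:52284899-52284926, minus strand): ggatggtacgTTTCCCGCcaccgcgggg
MCM7 (chr7:100101567-100101594, minus strand): agctcggaccGCGGGAAAcccggcgcct
GINS2 (chr16:85688968-85688995, minus strand): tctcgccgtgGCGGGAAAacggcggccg
GINS3 (chr16:58392456-58392483, plus strand): gtccccgggcGCGGGAAAcgagtttcaa
RFC3 (chr13:33818084-33818111, plus strand): tttggagctcGCGGGAAAacttgtctct
TYMS (chr18:657604-657631, plus strand): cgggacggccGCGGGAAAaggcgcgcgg
These 6 genes changed by -0.64 (MCM3), -0.60 (MCM7), -0.53 (GINS2), -0.68 (GINS3), -0.50 (RFC3) and -0.41 (TYMS) on the log2 scale. In GINS3 and GINS2 the match began 5 and 31 bases before the start, and in MCM3 and MCM7 174 and 187 bases before it. MCM7 had signals of 410.3 and 425 in mock and 252, 267 and 257 with the mimic. GINS2, MCM7, RFC3 and TYMS, named for their motif, and the other subunits of the helicase, clamp loader, primase and chaperone listed above were chosen after their values were seen.

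DNA repair genes fell in a smaller share. Of 43 measured, 11 were called lower (25.6%, against 2.56% over all probes) and 0 higher, with a list median of -0.163. XRCC6, a subunit of the Ku heterodimer that binds DNA ends, was the brightest, at 3926 and 4036 in mock and 2176, 2519 and 2229.7 with the mimic (1.72-fold, adjusted p = 0.00176). The other Ku subunit, XRCC5, read 555 and 662 against 589, 441 and 496 and did not pass (adjusted p = 0.393). TRAIP, a ubiquitin ligase at stalled forks, fell 2.78-fold (54.3 and 54.9 against 20.4, 20.4 and 18.3, adjusted p = 0.00628), and MDC1, which assembles checkpoint proteins at breaks, fell 2.69-fold (69.4 and 49.3 against 21.1, 22.3 and 22.7, adjusted p = 0.00832). EME1, a partner of the MUS81 nuclease, fell 2.39-fold (adjusted p = 0.0101). The kinases ATR and CHEK1 were not called, with log2 changes of 0.03 ± 0.04 and -0.06 ± 0.06 and adjusted p of 0.736 and 0.665. XRCC5, ATR and CHEK1 were named after their values were seen.

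Mitotic genes were called in 8 of 42 cases, all lower (19%, against 2.56% over all probes), with a median of -0.177. CDCA5, which protects cohesion between sister chromatids, fell 2.4-fold (96.1 and 98.8 against 42.0, 42.2 and 37.4, adjusted p = 0.00628), and cyclin A2 (CCNA2) 2.06-fold (536 and 739 against 301, 316 and 310.0, adjusted p = 0.0111). BIRC5, the survivin subunit of the chromosomal passenger complex, fell by less, 1.28-fold, with tight groups (595 and 565 against 451, 454 and 455, adjusted p = 0.00823). It was as low with the negative control (453, 433 and 432, log2 change from mock -0.36, adjusted p = 0.0081). CDC20 read 1195 and 1017 against 812, 683 and 892 and did not pass (adjusted p = 0.115), nor did TPX2 (377 and 561 against 277, 395 and 353, adjusted p = 0.308). The list of G1 cyclins, their kinases, RB and E2F proteins had 33 measured genes. Of these 4 were called lower (CCND1, CCNE2, E2F2 and E2F4) and 1 higher. The shares were 12.1% and 3.03%, against 2.56% and 1.22% over all probes. The gene called higher was the kinase inhibitor CDKN1C, at 11.8 and 13.2 in mock and 33.8, 28.4 and 29.8 with the mimic (2.44-fold, adjusted p = 0.00928). Its call was lost without mock replicate 2 (adjusted p = 0.0558). The list median was 0.0015, and uncalled members lay on both sides of it, such as CDK2 at -0.47 (adjusted p = 0.308) and CDKN1A at 0.52 (adjusted p = 0.0701).

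The counts of these lists depended on the scaling, on the fit and on single arrays. With the replicate number as a block in the fit, the replication, repair and mitotic lists had 12, 4 and 6 calls. After centring arrays on their medians, on the authors' log2 values and with the pixels surrounding each spot as background, the replication list had 5, 5 and 0 calls, the repair list 2, 3 and 0, and the mitotic list 0, 2 and 0. The replication list had 22 calls with all arrays, 14, 14 and 9 without mimic replicates 1, 2 and 3, 12 and 7 without mock replicates 1 and 2, and 18, 19 and 15 without negative control replicates 1, 2 and 3. The repair list had 11, and then 5, 8, 6, 6, 3, 9, 10 and 7 in the same order. The mitotic list had 8, and then 5, 5, 4, 6, 4, 5, 5 and 4.

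**Figure D4:**
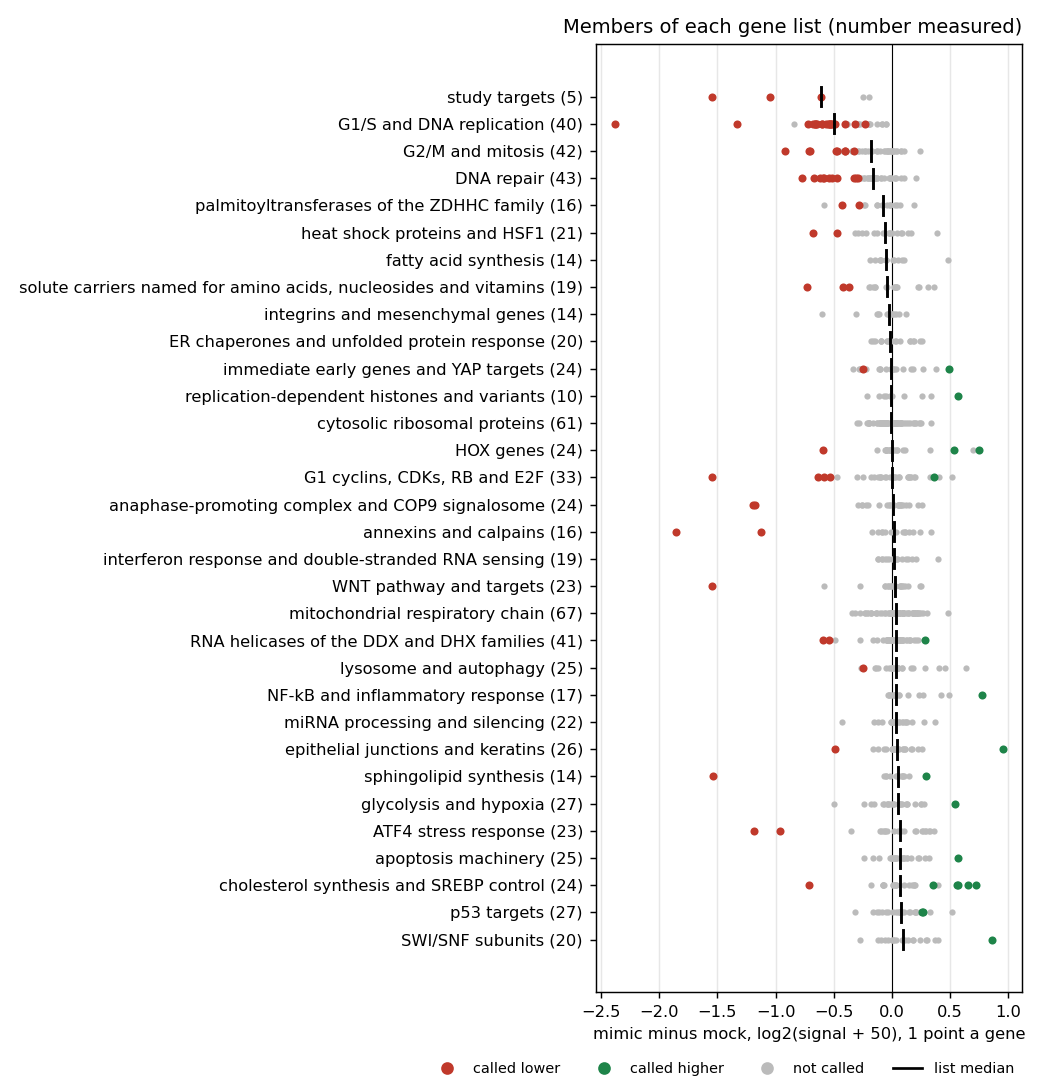
Mimic minus mock difference in log2(signal + 50) for each measured member of 32 gene lists, with 1 point per gene, the list median as a bar, and calls coloured. The replication list lies to the left of 0 as a whole, with 22 calls and a median of -0.493, whereas the ribosomal protein and respiratory chain lists sit around 0 with no call.

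A few genes of sterol synthesis rose. Of 24 measured genes of cholesterol synthesis and its control, 5 were called higher, against a background of 1.22%, and 1 lower, while 18 did not pass. HMGCS1, which makes the precursor that HMG-CoA reductase uses, had 135 and 107 in mock and 251, 199.8 and 248 with the mimic (1.92-fold, adjusted p = 0.0115). MVK, mevalonate kinase, had 80.7 and 125 against 198, 179 and 189 (1.83-fold, adjusted p = 0.0234), and INSIG1, the sterol-regulated brake on the pathway, 66.1 and 71.5 against 142, 115 and 123 (1.84-fold, adjusted p = 0.0143). EBP, a sterol isomerase late in the pathway, fell 1.76-fold, from 441 and 437 to 259, 262 and 225 (adjusted p = 0.00757). The list median was 0.075. The count of 5 fell to 3, 2 and 2 without mimic replicates 1, 2 and 3, to 3 and 1 without mock replicates 1 and 2, to 3, 4 and 3 without negative control replicates 1, 2 and 3, and to 0 on the authors' log2 values.

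Among stress genes, 2 of 21 heat shock genes were called, both lower (9.52%, against 2.56% over all probes). HSF1, the factor that switches on heat shock genes, went from 25.2 and 22.4 to 4.80, 2.31 and 2.91, with only 1 of the 3 mimic arrays above background (log2 change -0.47 ± 0.05, adjusted p = 0.00607). BAG3, a co-chaperone, went from 533 and 572 to 368, 275 and 342 (adjusted p = 0.0375), a call lost without any mimic array, any mock array or negative control replicate 3 (adjusted p up to 0.167). The p53 list had 2 calls of 27, both higher, against 1.22% over all probes. They were BTG2 (1.9-fold) and SESN1 (1.82-fold), whose calls were lost in 6 and 5 of the 8 omissions of an array (adjusted p up to 0.16 and 0.123). BTG2 changed as much with the negative control (0.26, adjusted p = 0.0351) as with the mimic (0.26). CDKN1A read 354 and 357 against 474, 509 and 623 and did not pass (adjusted p = 0.0701). Of 19 listed solute carriers 3 were called, all lower, against 2.56% over all probes, namely the vitamin transporter SLC5A6 (2.15-fold) and the nucleoside transporters SLC29A3 (2.98-fold) and SLC29A1 (1.82-fold). Among 16 palmitoyltransferases, ZDHHC12 (2.36-fold) and ZDHHC13 (1.4-fold) were called lower, or 12.5% against 2.56% over all probes. The calls of SLC5A6 and ZDHHC13 were each lost in 7 of the 8 omissions (adjusted p up to 0.0927 and 0.187), and that of ZDHHC12 without mock replicate 2 (0.0721).

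Several lists had no call in either direction. Over all probes 3.78% were called, a share at which a short list would often have no call. They were 67 genes of the respiratory chain (log2 changes from -0.34 to 0.48), 61 cytosolic ribosomal proteins (-0.30 to 0.34), 22 genes of microRNA processing and silencing, 20 chaperones and sensors of the endoplasmic reticulum, 14 genes of fatty acid synthesis and 14 integrins and mesenchymal genes. The respiratory list had a smallest adjusted p of 0.0615, for SDHA. The interferon and double-stranded RNA list had 19 measured genes, 0 calls and a median of 0.0205. Its highest member was ISG15, an interferon-induced ubiquitin-like protein, at 734 and 629 in mock and 855, 921 and 956 with the mimic (log2 change 0.40, 95% interval 0.13 to 0.66, adjusted p = 0.117). EIF2AK2, the kinase that senses double-stranded RNA, read 38.0 and 29.1 against 54.1, 42.0 and 43.1 (log2 change 0.21, interval 0.02 to 0.39, adjusted p = 0.215). Neither passed the test.

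The genes named by the study as targets of miR-8073 were read in the same comparison. FOXM1, a transcription factor of proliferating cells, went from 75.2 and 61.8 in mock to 8.71, 6.37 and 6.84 with the mimic, 9.38-fold lower (adjusted p = 0.000404). KLK10, a kallikrein protease, went from 37.1 and 35.4 to 8.10, 6.31 and 5.10 (5.58-fold, adjusted p = 0.0011), with 2 of 3 mimic arrays above background. MBD3, a subunit of the NuRD complex, had 3 probes that disagreed, with a log2 change of -0.56 ± 0.05 at H200008337 (adjusted p = 0.00375), -0.19 at DHsGV10003361 (adjusted p = 0.33) and 0.01 at DHsGV10001502 (adjusted p = 0.967). CASP2, a caspase, was above background on both mock arrays, at 7.90 and 20.7, and on 0 of 3 mimic arrays (adjusted p = 0.279). The study chose these genes with the help of these arrays, so their direction is not independent evidence. With CCND1, which the study also named, and with each gene read by its brightest probe, 3 of the 5 were called lower, MBD3 not being called at its brightest probe.

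With the negative control sequence, several of the genes that fell most had signals near those in mock, namely COPS7A (174, 159 and 176), ANAPC15 (132, 136 and 173), CERS2 (341, 416 and 429.9) and ANXA5 (1695, 1483 and 1357). Others were lower with it as well. SHMT2 changed by -0.44 ± 0.06 with the negative control (434, 501 and 457, adjusted p = 0.013) and by -0.97 with the mimic, and GPRC5A by -0.43 ± 0.04 and -0.90. Among the rises, SMARCD2 changed by 0.64 and CKAP4, a membrane protein of the endoplasmic reticulum, by 0.46 with the negative control (adjusted p of 0.0308 and 0.0333), beside 0.86 and 0.62 with the mimic. The mimic and the negative control did not pass against each other for ALDOC, BIRC2, CKAP4, MVK, RBMS1 or SMARCD2 (adjusted p of 0.95, 0.0524, 0.222, 0.254, 0.0681 and 0.194). ALDOC, an aldolase, rose by 0.54 ± 0.11 with the mimic and by 0.55 ± 0.11 with the negative control. All of these differences from mock use the same mock arrays.

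Some named genes stood on the other side of mock with the negative control. NINJ1, a protein of plasma membrane rupture, had 93.8 and 104 in mock, 39.7, 39.4 and 51.6 with the mimic and 142, 140.1 and 131 with the negative control (log2 changes of -0.67 and 0.33, adjusted p of 0.00481 and 0.0469). ID3, an inhibitor of helix-loop-helix factors, had 311 and 282, then 183, 182 and 194, then 402, 425 and 479.6 (-0.55 and 0.48, adjusted p of 0.0104 and 0.0198). DDX3X, an RNA helicase, had 100.4 and 86.5, then 120.1, 133 and 122, then 56.5, 52.3 and 56.3 (0.29 and -0.45, adjusted p of 0.0389 and 0.0116). The call of DDX3X with the mimic was lost in 7 of the 8 omissions (adjusted p up to 0.173) and that of ID3 without mock replicate 1 (0.0515). In contrast RNF11, a ubiquitin ligase, rose alike with both, by 0.42 ± 0.05 and 0.39 ± 0.05, and CYTH1, an activator of ARF proteins, by 0.36 ± 0.05 and 0.46 ± 0.05. Within the replication list, GINS3 and MCM3 were also lower with the negative control than in mock (-0.37 and -0.36, adjusted p of 0.0144 and 0.0173), whereas RRM2, chosen after its values were seen, was higher (0.64, adjusted p = 0.0297) at 4463, 4417 and 4246 against 2456 and 3160.1. The replication list as a whole had 2 lower and 1 higher call for the negative control against mock, with a median of -0.0392.

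**Figure D5:**
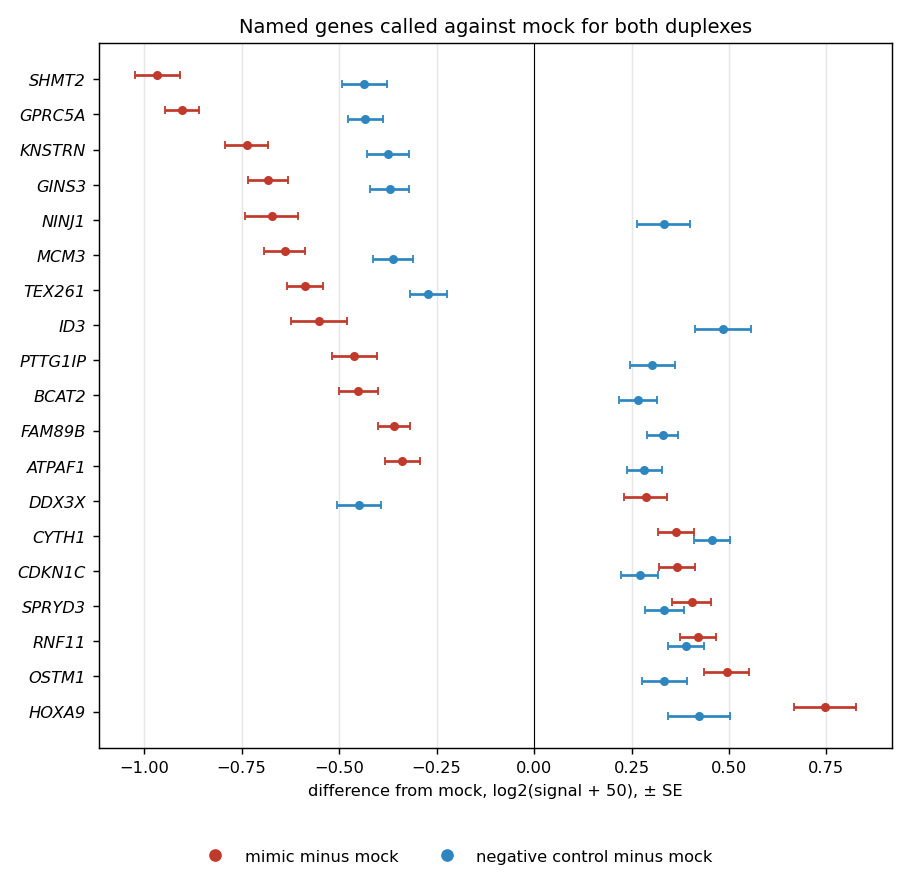
Differences from mock in log2(signal + 50), with standard errors, for 19 of the named genes called against mock both for the mimic and for the negative control. They were picked by smallest adjusted p for the mimic. Others called for both, such as BIRC5, BTG2 and ALDOC, are not shown. SHMT2 and GPRC5A lie left of 0 for both sequences, HOXA9 and CYTH1 right of 0 for both, and NINJ1, ID3 and DDX3X on opposite sides. Both differences use the same 2 mock arrays.

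A few calls were changes from measurable to not measurable. Called probes that were above background on every array of the brighter group and on none of the dimmer group numbered 4 lower and 1 higher with the mimic, out of 72 and 21 such probes in all. The named ones were FAM111B (15.1 and 10.1 in mock, 2.69, 3.24 and 2.37 with the mimic), the elongation factor ELL2 (13.6 and 12.2 against 4.32, 4.14 and 3.56) and the zinc transporter SLC30A7 (12.3 and 10.7 against 4.35, 3.80 and 4.65). On the scale of log2(signal + 50) they were at least 1.13-fold, 1.14-fold and 1.12-fold lower. DCP2, the mRNA decapping enzyme, went the other way at 1 of its 2 probes (3.29 and 4.50 against 14.1, 14.0 and 9.82), at least 1.14-fold higher, and its brighter probe did not pass (85.2 and 113 against 159, 154 and 118, adjusted p = 0.143). The calls of FAM111B and SLC30A7 were lost whichever mimic or negative control array was left out. That of ELL2 was lost without any mimic array or negative control replicate 3. That of DCP2 was lost without mimic replicate 1 or 2 or any negative control array. All 4 were also lost when either mock array was left out. CD68, a lysosomal protein and a marker of macrophages, fell from 20.9 and 17.0 to 8.70, 7.95 and 7.19 (adjusted p = 0.0332), a call lost in 7 of the 8 omissions (adjusted p up to 0.123), while the blood cell markers PTPRC and CD3E were not above background on any of the 5 arrays. The lower summed blood cell signal with the mimic came from CD68, and its part in other results was not tested.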

How the data were processed

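Messenger RNA of HCT116 cells was measured on 8 single-colour 3D-Gene arrays. Per the file headers, each deposited intensity is the median pixel of a spot in the red channel, without background correction. The authors also deposited log2 values normalized by quantiles, with no statement of how background was removed. A second wavelength in the files belonged to no sample and was not used. Background was estimated from blank spots by normexp (offset of 50) and arrays were quantile normalized in limma 3.58.1 (R 4.3.3, jsonlite 2.0.0). This replaced the ring of pixels around each spot, which stands among the alternatives. A spot counted as above background beyond the blank spots' 95th percentile, and the 12904 probes passing this on at least 2 arrays were tested, 13 faulty spots being left out. Of 24460 probes, 20236 had 1 gene symbol (2899 updated, 99 in an older form) and 4224 had none. Means of the 3 groups were fitted to all 8 arrays (lmFit, eBayes, 5 residual and 2.36 prior degrees of freedom), with 2-sided p-values adjusted by Benjamini-Hochberg at 0.05. A rank test of 3 against 2 arrays cannot go below an exact 2-sided p of 0.2. Where a probe was above background on no array of the dimmer group, the fold is a lower bound, the brighter group's mean log2(signal + 50) against that of the higher of the probe's own value and the lowest value above background on each array.

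For the lists, each gene was read by the probe of highest mean over the 8 arrays. The genes named were the study's 5 targets and the 25 largest falls and 20 largest rises among called genes whose groups did not overlap. Each list added up to 4 called members of smallest adjusted p and up to 2 others of largest change. Called changes in detection were added, and those of smallest adjusted p among genes called against mock for both sequences. The members, lists and rule were chosen with earlier results of these data known. The fit was tested on simulated data. Figures were drawn with matplotlib 3.10.9 in Python 3.11.15, and promoters were read with pandas 2.3.3. Alternatives were another background, offset, scaling, filter, fit and test, the replicate block, and each array left out. No slide or scan was named in the headers, so none was used as a block.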

Additional observations from a re-analysis of the deposited data

How the results depend on the processing

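The count of 488 called probes (330 lower and 158 higher) was taken again under each alternative. It became 0 with the ring of pixels as background, 489 (328 and 161) with the mean of the blank spots subtracted, 686 (442 and 244) with an offset of 16, 102 (79 and 23) after centring arrays on their medians, 147 (127 and 20) on the authors' log2 values, 268 (194 and 74) without a filter on dim probes, 477 (319 and 158) with a filter on all arrays of a group, 185 (143 and 42) when only the 2 groups were fitted, 757 (472 and 285) with an intensity trend, and 2 (2 and 0, with 1724 at an unadjusted p below 0.05) with the methods' t-test. At the study's thresholds of p and fold that test gave 10 probes, all lower, and 18 on the authors' log2 values, also all lower. With any array left out the counts were 124 to 375 (101 to 263 lower and 23 to 124 higher). Fewer arrays or tested groups leave fewer degrees of freedom, and the cause was not tested otherwise.

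Mimic and mock arrays share the replicate numbers 1 and 2, and with the replicate block the count was 223 (156 and 67). Deviations from the group means correlated at 0.345 and 0.268 for the same-numbered mimic and mock arrays. Their other pairs lay at -0.345 to 0.127. The 2 mock arrays deviate from their mean by equal and opposite amounts, so -0.345 and -0.268 only mirror 0.345 and 0.268. Same-numbered pairs with the negative control lay at -0.106 to 0.1. No label stated that the numbers pair the arrays, so the main fit used no block. Whether mimic and mock arrays were paired was not tested otherwise.

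Of the 95 called probes of named genes, 9 changed sign with the ring as background and with no other alternative, to log2 changes of 0.323 for SHMT2, 0.0101 for SLC5A6, 0.0592 for PTTG1IP, 0.0578 for BCAT2, 0.0243 for ELL2, -0.0704 for ALDOC, -0.133 for BIRC2, -0.374 for FAM8A1 and -0.00378 for RSRP1. The other 86 kept their direction there without passing. Calls were lost for all 95 with the methods' t-test, 52 with centring on medians, 41 on the authors' values, 29 with the block, 28 with the 2 groups alone, 26 without a filter and 45 without mock replicate 2.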
